A study of Mus musculus with 272 samples.

Results

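Bhmt, Bhmt2, Mat2a, Mat2b, Ahcy, Mtr, Mthfd1, Shmt1 and Shmt2 are genes of the betaine, methionine and folate cycles, followed here from the mouse oocyte to the blastocyst. These 9 genes were taken by name from a table of 15771 genes, and all 9 were in it. Bhmt was picked for its rise between the 2-cell and the 4-cell transcriptome, and the other members for their place in the same cycles, so the transcriptome values at that transition are a description and carry no test for the members. The series holds 8 stages: the germinal vesicle (GV) oocyte, the metaphase II (MII) oocyte, the zygote, the 2-cell, 4-cell and 8-cell embryo, the morula and the blastocyst. There are 4 transcriptome libraries a stage, made from pools of 20 oocytes or embryos, and 3 sucrose gradients, A to C, each made from a lysate of about 100 and cut into 10 fractions. Every lysate contained cycloheximide, which holds ribosomes on their transcripts. The labels give no strain, age or genotype, and they do not state that pools or gradients came from separate females, so p-values measure the spread between these pools and gradients.

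One-carbon metabolism passes single carbon groups between nutrients and the reactions that use them. Folate carries carbon units taken from serine by the hydroxymethyltransferases Shmt1 (cytosol) and Shmt2 (mitochondria), and Mthfd1 interconverts the folate forms that feed purine and thymidylate synthesis. In the methionine cycle, Mat2a, with its regulatory subunit Mat2b, makes S-adenosylmethionine, the methyl donor for DNA, RNA, histones and lipids. Ahcy splits the S-adenosylhomocysteine left after methyl transfer, and homocysteine is turned back into methionine either by Mtr, with a methyl group from folate, or by Bhmt, with a methyl group from betaine. Bhmt2 is a relative of Bhmt that uses S-methylmethionine. Bhmt is best known as an abundant liver and kidney enzyme, and mouse preimplantation embryos store and use betaine.

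Bhmt and Bhmt2 are neighbours on mouse chromosome 13 and switched on over the same stages, so the sequences before their starts are shown side by side. They are RefSeq reference sequence of build GRCm38.p6, read 5′ to 3′ on the strand of the gene. The Bhmt stretch is chr13:93637759-93638008, minus strand, the 250 bases before the start. The Bhmt2 stretch is chr13:93674303-93674435, minus strand, the 133 bases that lie between the start of Bhmt2 and the start of Dmgdh, which is read from the opposite strand. Dmgdh encodes dimethylglycine dehydrogenase, which acts on the product of the Bhmt reaction. Capitals mark matches on either strand to any of 4 motifs. The first is the TATA box with the letters TATAAA, the next is the box named CCAAT, then comes the GC box with the letters GGGCGG, and the last one searched, AAGGTCA, is known to be bound by orphan nuclear receptors such as Nr5a2 and Esrrb.

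Bhmt: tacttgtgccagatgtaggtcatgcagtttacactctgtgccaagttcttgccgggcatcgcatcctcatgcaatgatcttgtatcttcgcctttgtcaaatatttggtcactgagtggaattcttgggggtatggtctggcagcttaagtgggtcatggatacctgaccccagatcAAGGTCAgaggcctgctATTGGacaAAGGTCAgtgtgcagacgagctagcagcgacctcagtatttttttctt

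Bhmt2: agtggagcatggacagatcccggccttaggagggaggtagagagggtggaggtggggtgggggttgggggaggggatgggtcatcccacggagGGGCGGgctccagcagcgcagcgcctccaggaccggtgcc

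The 300-base Bhmt window, from 250 bases before the start to 50 after it, held 48% G and C and 8 CG steps. The Bhmt2 window held 73.7% and 26. Bhmt had AAGGTCA at 2 places, beginning 73 and 48 bases before the start, with an inverted CCAAT match between them. At least 1 AAGGTCA lay in 4.72% of 32851 promoter windows of the same length, and 2 or more lay in 59 of them, or 0.18%. AAGGTCA was added to the search after the Bhmt sequence had been read, so its presence there is a description. Bhmt2 had 2 GC boxes and none of the other matches, and GC boxes lay in 35.7% of all windows. CCAAT lay in 37.4% of the windows and TATAAA in 13.6%. Among the members the TATA letters were found only in Mat2a, 32 bases before its start. The windows of Bhmt2 and Dmgdh overlapped by 233 bases.

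Transcriptome libraries held 11.2 to 24.3 M reads and fraction libraries 0.0102 to 43.2 M, with 15 fraction libraries under 1 M. Values are CPM, the reads of a gene per 1 M reads of its library, with each fraction set to the same total, and a level in a fraction is a share of that fraction's messages and not an amount. In bulk pools, fewer cells with a transcript and less transcript per cell cannot be told apart. Fractions of the 2-cell and 4-cell gradients were patchy: among genes with a mean of at least 10 CPM over a stage's fractions, 29.3% and 29.7% of single values were 0, against 1.36% in the blastocyst. Summed marker genes followed the stage labels in the transcriptomes. The summed level of 5 oocyte markers was 13374 to 15386 CPM in GV libraries and 4.31 to 11.3 CPM in blastocysts. The sum of 7 blastocyst markers ran from 42.7 to 53.6 CPM in GV libraries and from 2480 to 3028 CPM in blastocysts. Fraction libraries followed less closely. Their median sum of oocyte markers was 557 CPM at the 4-cell stage, against 36.4 to 56.8 CPM in its transcriptomes. At the 8-cell stage it was 256 CPM, against 31.7 to 41.0 CPM. Single markers also differed in transcriptome means. Gata3, of the blastocyst list, was at 107 CPM in zygotes, and Tdpoz4, of the 2-cell list, at 34.2 CPM at the 4-cell stage. For the liver, where Bhmt is abundant, only Apoa1 of 5 listed markers was in the table, at 0 to 1.67 CPM in every transcriptome up to the 8-cell stage. Apoa1 was at 4.44 to 11.2 CPM in morulae and at 15.6 to 40.6 CPM in blastocysts. For cumulus and granulosa cells 3 of 8 markers were in the table, with a summed level of 39.0 to 69.7 CPM in oocytes, nearly all of it Cyp19a1, and 0 to 3.92 CPM from the 4-cell stage on. For sperm only Prm2 of 4 was present, at 0 to 19.3 CPM. The part of these other cells in the results was not tested.

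Bhmt transcripts were not detected in oocytes or zygotes and became one of the most abundant messages of the set from the 4-cell stage. In all 12 GV, MII and zygote libraries Bhmt was at 0 reads, where 3 reads correspond to 0.119 to 0.254 CPM in a transcriptome library. The 4 libraries of the 2-cell stage gave 2.50, 3.22, 0.762 and 0.736 CPM. The 4-cell libraries gave 922, 915, 770 and 775 CPM, a mean 468-fold above the 2-cell mean, and 8-cell libraries gave 980, 938, 903 and 1003 CPM. Morulae held 1123, 1539, 1733 and 2079 CPM and blastocysts 1341, 1117, 1220 and 1888 CPM, so the morula and blastocyst ranges overlapped, while the 8-cell range lay below both. Against a floor of 3 reads per zygote library, the 2-cell mean was at least 11.4-fold higher (limma, log2 change 1.37, SE 0.21, adjusted p = 5.8e-07), a call lost under quantile normalization. Bhmt entered that fit only through later stages, the 4-cell libraries by which it was picked among them. Too few zygote and 2-cell libraries reached 1 CPM for a fit with only these stages. The spread also comes in part from stages where Bhmt was at 0, so the p-value is no firm support. No later transition of Bhmt outside 2-cell to 4-cell passed the threshold of adjusted p under 0.05 and a change of at least 1 on the log2(CPM + 1) scale.

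Bhmt2 followed the same order of stages at a much lower level. Its transcripts were at 0 reads in all 12 oocyte and zygote libraries and at 2.50, 1.15, 3.22 and 2.06 CPM in those of the 2-cell stage, at least 14.1-fold above the floor of 3 reads per zygote library (limma, log2 change 1.65, SE 0.18, adjusted p = 1.3e-09). The 4-cell libraries held 38.4, 45.4, 34.6 and 38.2 CPM, 17.5-fold above the 2-cell mean. The level peaked in the morula at 122, 95.1, 87.9 and 91.3 CPM and fell to 52.4, 33.0, 42.6 and 47.6 CPM in the blastocyst (limma, log2 change -1.16, SE 0.18, adjusted p = 2.4e-06). All 4 blastocyst libraries lay below all 4 morula libraries. The ratio of Bhmt to Bhmt2 CPM within a library was 21.7 ± 1.84 (SD, n = 4) at the 4-cell stage, 17.2 ± 2.33 at the 8-cell stage, 17.0 ± 5.82 in the morula and 31.9 ± 6.16 in the blastocyst. At the 2-cell stage it was 1.10 ± 1.18, with the 2 genes at about the same few CPM.

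**Figure D1:**
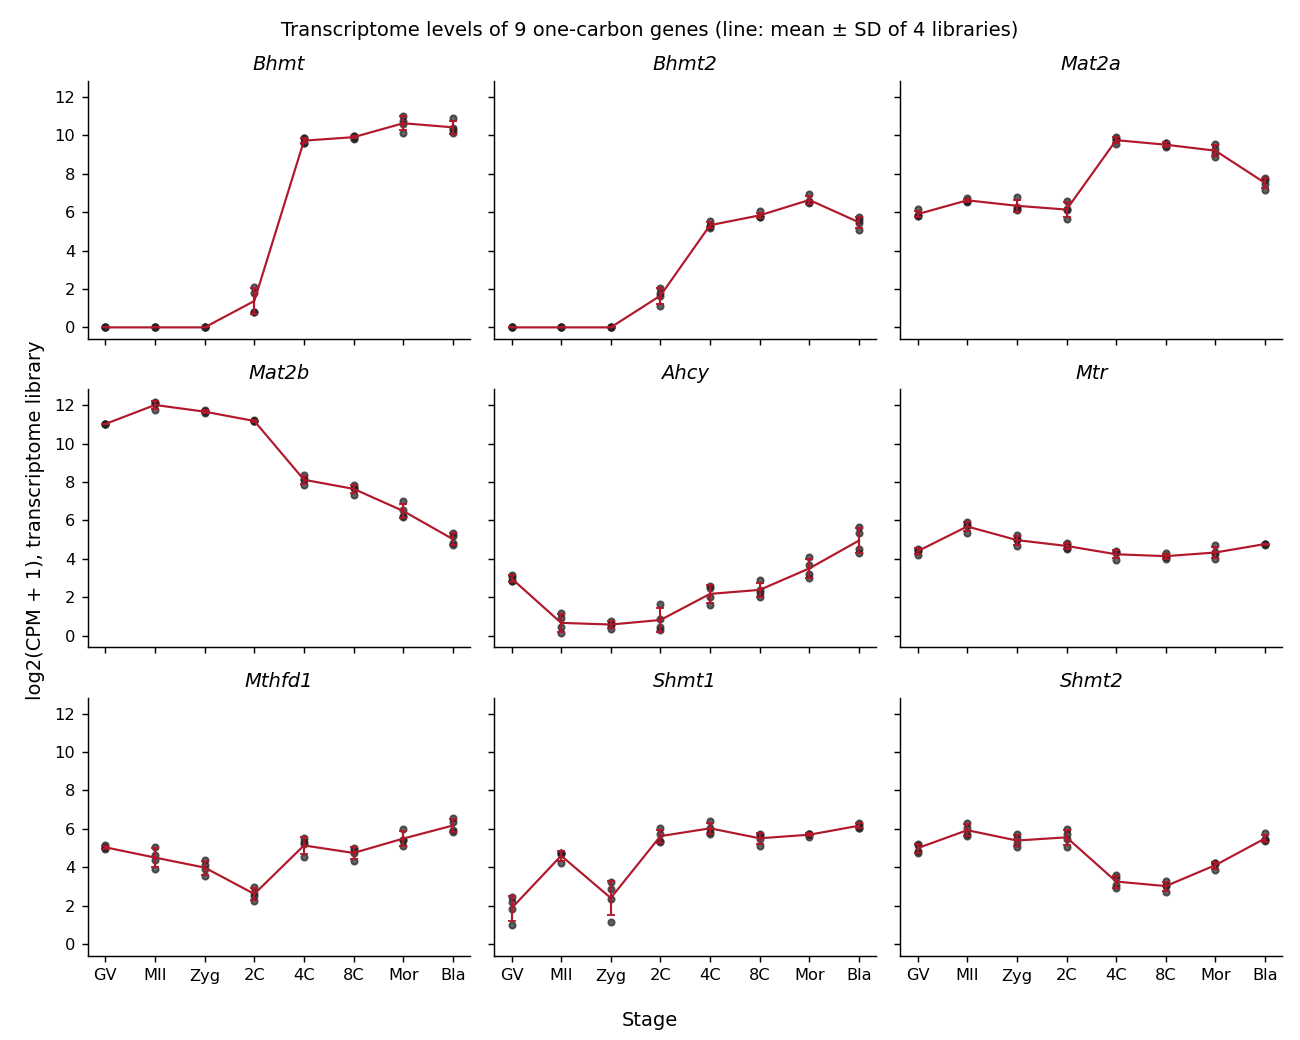
Level of each of the 9 genes as log2(CPM + 1) in the 4 transcriptome libraries of each stage (points), with the mean and SD (line and bars), all panels on the same vertical scale. Bhmt and Bhmt2 sit at 0 up to the zygote and step up at the 4-cell stage, while Mat2b steps down there.

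Between the 2-cell and the 4-cell stage, a step without a test for the members, the 2 subunits of the embryo's S-adenosylmethionine synthetase moved in opposite directions. At the other transitions their changes had the same sign, and both fell from the morula to the blastocyst. Mat2b, the regulatory subunit, was the most abundant member in oocytes, with 2057 to 2110 CPM in GV, 3390 to 4657 CPM in MII, 3062 to 3395 CPM in zygote and 2277 to 2415 CPM in 2-cell libraries. The 4-cell libraries held 277, 229, 285 and 327 CPM, 8.29-fold below the 2-cell mean. Mat2b then fell to 94.1, 127, 70.9 and 74.3 CPM in the morula (limma, log2 change from the 8-cell stage -1.15, SE 0.15, adjusted p = 2.6e-07) and to 39.6, 36.0, 25.2 and 27.8 CPM in the blastocyst (limma, log2 change -1.47, SE 0.15, adjusted p = 2.6e-10). Mat2a, the catalytic subunit, lay between 48.7 and 109 CPM in every library up to the 2-cell stage. It stood at 953, 869, 886 and 737 CPM at the 4-cell stage, 12.1-fold above the 2-cell mean, and at 660 to 782 CPM at the 8-cell stage. In the morula Mat2a was at 466, 745, 629 and 539 CPM, and it fell 3.23-fold to 219, 200, 141 and 177 CPM in the blastocyst (limma, log2 change -1.68, SE 0.17, adjusted p = 2.1e-10). The Mat2b libraries of the 2-cell and 4-cell stages did not overlap, nor did those of Mat2a, in the opposite order.

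Ahcy and Mtr, the other members of the methionine cycle, were low. Ahcy, which removes S-adenosylhomocysteine, was at 7.36, 8.00, 6.14 and 6.28 CPM in GV and fell to 0.876, 1.28, 0.0938 and 0.370 CPM in MII oocytes (limma, log2 change -2.31, SE 0.30, adjusted p = 4.1e-08). It was at 0.221 to 2.12 CPM in zygote and 2-cell libraries and was at 2.08 to 5.09 CPM at the 4-cell and 3.11 to 6.46 CPM at the 8-cell stage. The morula libraries held 11.9, 16.3, 7.17 and 8.20 CPM (limma, log2 change 1.12, SE 0.30, adjusted p = 0.0047, a call lost with edgeR at adjusted p = 0.052, under quantile normalization, with a pseudocount of 0.1 and without morula library B, where the change was 0.92). The blastocyst libraries held 50.4, 21.8, 39.0 and 18.7 CPM (limma, log2 change 1.45, SE 0.30, adjusted p = 1.5e-04). Ahcy has near-identical copies, Gm4737 at 99.7% identity over 2083 bases and Gm9826 at 99.2% over 1299 bases in the GENCODE M21 transcripts, which are not among the gene rows used here. How reads that fit several genes were counted is not given in the sources used here, so the level of Ahcy is uncertain. Mtr, the folate-dependent methionine synthase, rose from 17.5 to 22.2 CPM in GV to 40.3 to 58.7 CPM in MII libraries (limma, log2 change 1.29, SE 0.16, adjusted p = 1.7e-08). From the zygote to the blastocyst it stayed between 14.2 and 36.5 CPM with no transition past the threshold, the 2-cell to 4-cell step not being tested.

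Among the folate genes, Shmt1 and Shmt2 had different time courses. Shmt1 was at 0.986, 4.51, 2.50 and 3.59 CPM in GV and rose to 25.7, 25.2, 25.8 and 17.6 CPM in MII oocytes (limma, log2 change 2.74, SE 0.29, adjusted p = 2.8e-10). It fell to 8.28, 6.40, 4.09 and 1.22 CPM in zygotes (limma, log2 change -2.202, SE 0.29, adjusted p = 2.2e-07). It rose again 9.87-fold to 52.8, 40.8, 64.7 and 39.0 CPM at the 2-cell stage (limma, log2 change 3.22, SE 0.29, adjusted p = 6.2e-12), and stayed between 33.8 and 85.0 CPM in every later library. Shmt2, the mitochondrial enzyme, was at 31.9 to 62.0 CPM in 2-cell and 6.59 to 11.04 CPM in 4-cell libraries, 5.43-fold lower in the mean. It rose to 17.8, 17.5, 17.0 and 13.3 CPM in the morula (limma, log2 change from the 8-cell stage 1.09, SE 0.20, adjusted p = 6.3e-05, a call lost under quantile normalization and, at a change of 0.99, without 8-cell library B) and to 42.9, 41.9, 53.2 and 40.5 CPM in the blastocyst (limma, log2 change 1.39, SE 0.20, adjusted p = 3.6e-07). Mthfd1, the cytosolic folate interconverter, fell from 10.5, 20.1, 14.1 and 16.2 CPM in zygotes to 6.99, 5.36, 3.81 and 4.71 CPM at the 2-cell stage (limma, log2 change -1.37, SE 0.24, adjusted p = 6.0e-06). At the 4-cell stage Mthfd1 was at 44.2, 38.5, 36.6 and 21.8 CPM, and in the blastocyst at 56.1 to 93.5 CPM.

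Over the 6 transitions tested in the transcriptomes, 16 member changes passed. From GV to MII 3 of 9 members passed, Shmt1 and Mtr upward and Ahcy downward, against 34.5% of the 14642 genes tested. There edgeR and DESeq2 each called 6, with Mat2a, Mat2b and Shmt2 upward too, beside 6908 of 15156 and 7335 of 15169 genes. From MII to zygote limma called 1 of 9 against 10.3%. From zygote to 2-cell it called 4 of 9 against 33.9%, with Bhmt, Bhmt2 and Shmt1 upward and Mthfd1 downward. The Bhmt call counted there entered the fit through later stages, and with only the zygote and 2-cell stage fitted 3 members passed. From the 4-cell to the 8-cell stage limma called 0 of 9, with 2 members at an unadjusted p under 0.05 and 0 called by edgeR or DESeq2, where 2.6% of all genes passed. From the 8-cell stage to the morula 3 of 9 passed against 11.9%, and from morula to blastocyst 5 of 9 against 26.8%. Between the 2-cell and 4-cell stage 64.8% of all genes passed, and the members' own log2 changes, used in choosing Bhmt, were 8.35 for Bhmt, 3.67 for Bhmt2, 3.61 for Mat2a, 2.52 for Mthfd1, 1.36 for Ahcy, 0.40 for Shmt1, -0.43 for Mtr, -2.30 for Shmt2 and -3.06 for Mat2b. The median over all genes there was 0.02. Split by direction, the 16 calls were 9 rises and 7 falls.

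Divided by the length of all exons of the gene in GENCODE M21, a measure that allows levels of different genes to be set side by side, the leading member changed at the 4-cell stage. Mat2b led from GV (417 CPM per kb) through MII (832), zygote (650) and 2-cell embryo (463), with Mat2a next at 13.1 to 21.7 CPM per kb, although its libraries overlapped those of Shmt2 in MII, zygote and 2-cell embryo. At the 4-cell stage Mat2a led with 192 CPM per kb, Bhmt followed with 147 and Mat2b with 55.9, and these 3 did not overlap. At the 8-cell stage Bhmt (166) and Mat2a (163) overlapped. In the morula Bhmt led with 281 CPM per kb over Mat2a with 133, and in the blastocyst with 242 over 41.1, without overlap between libraries in either stage. Bhmt2 per kb was 22.8 at the 8-cell stage and 40.1 in the morula.

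Bhmt reached its highest CPM in fractions 8 to 10 in most gradients that held it. Light complexes stay near the top of a sucrose gradient and messages loaded with many ribosomes travel further down. The labels only number the fractions, and fractions 1 to 5 are called the light side and 6 to 10 the heavy side here, by convention. Bhmt was at 0 in all 30 fraction libraries of each of the GV, zygote and 2-cell stages, and at most 0.111 CPM in those of MII. At the 4-cell stage it was patchy: gradient A held 706 CPM in fraction 8 and at most 39.2 CPM elsewhere, gradient B held at most 2.35 CPM in any fraction, and gradient C held 35.6 to 122 CPM in fractions 2, 3 and 7 to 10. In the 8-cell stage fraction 10 held 656, 611 and 36.1 CPM in gradients A, B and C. In the morula fraction 10 held 1911, 1556 and 2741 CPM, the highest fraction of each gradient, while the highest value in fractions 1 to 7 of any gradient was 346 CPM. In the blastocyst the highest fraction was 10 in gradient A (721 CPM) and 9 in gradients B (664 CPM) and C (986 CPM). The centre of the Bhmt profile, the mean fraction number weighted by CPM, was 6.10 ± 1.42 (SD, n = 3 gradients) at the 4-cell stage, 7.51 ± 0.93 at the 8-cell stage, 8.31 ± 0.35 in the morula and 6.51 ± 0.35 in the blastocyst. The median centre over all genes was 4.93, 5.64, 5.80 and 5.43 at those stages.

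**Figure D2:**
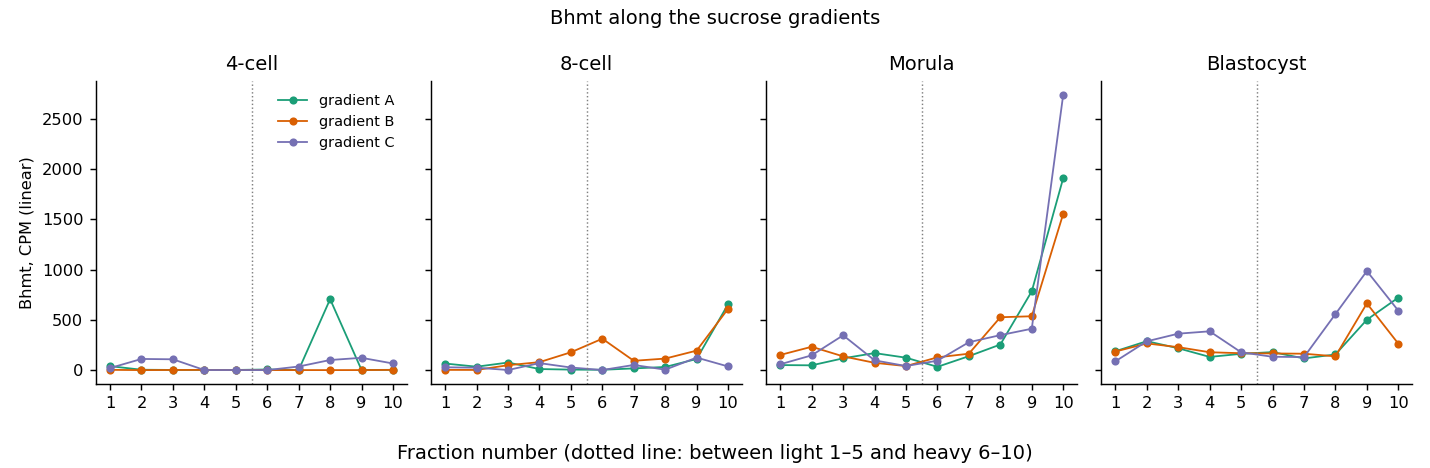
Bhmt level in CPM (linear axis) in fractions 1 to 10 of gradients A, B and C at the 4 stages that held it. Morula gradients peak in fraction 10 at 1556 to 2741 CPM, and 4-cell gradients differ from one another, with gradient B near 0.

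The heavy side mean of Bhmt was 0 in all 3 gradients at the 2-cell stage and 143, 0.517 and 64.8 CPM at the 4-cell stage (limma on log2(mean CPM of fractions 6 to 10 + 1), change 4.61, SE 1.05, adjusted p = 0.0014). These libraries were separate from the transcriptomes by which Bhmt was picked, but they are of the same stages. A gene picked for its rise between these stages was likely to rise in their fractions too. The test is therefore not independent of the choice of Bhmt. Of these 6 gradients 2 reached 1 CPM, so a fit with only the 2 stages could not be made, and the spread in the test comes in part from stages where Bhmt was at 0 throughout. On simulated data, fits that share 1 spread over all stages called unchanged genes more often than the threshold allows, for heavy sides and for heavy against light, and most often in comparisons with the 2-cell or 4-cell stage. The adjusted p-values of these fits can therefore be too small, above all with the 2-cell or 4-cell stage. The fit with only the groups compared is given for calls that it does not keep. At other stages that fit could call more genes. Heavy against light in the morula it called 1610 of 10962, where the shared spread gave 882 of 15172. The heavy side mean of Bhmt was 164, 265 and 43.4 CPM in the 8-cell embryo, 624, 582 and 774 CPM in the morula and 335, 279 and 480 CPM in the blastocyst. The Bhmt heavy side was above the light side in each gradient of the 8-cell stage and the blastocyst, but neither difference passed (limma, change 1.57, adjusted p = 0.35, and change 0.69, adjusted p = 1). In the morula the light side held 101.5, 126 and 138 CPM, so every heavy side lay over every light side. That difference of 2.43 (SE 0.90) had a limma adjusted p of 0.12 in the fit that shares 1 spread over all stages, of 0.010 with the gradient as a block, since both sides come from 1 lysate, and of 5.1e-04 with only the morula fitted. With edgeR it was 2.22 with adjusted p = 0.48.

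In the morula the heavy and light sides of Bhmt2 lay closer together than those of Bhmt, and in the blastocyst they were about as far apart, with the difference between the 2 genes not tested. Its heavy side held 0.147, 34.9 and 21.2 CPM in 4-cell gradients A to C and 0 CPM in each 2-cell gradient (limma, change 3.28, SE 0.82, adjusted p = 0.0032), a call lost with the mean of log2 values over fractions and one that could not be fitted with only the 2 stages. At the 8-cell stage it held 54.4, 140 and 81.1 CPM (limma, change 3.15, SE 0.82, adjusted p = 0.025). That second call was lost with only the 2 stages fitted (adjusted p = 0.51), with edgeR, and without 4-cell gradient A (change 1.61) or 8-cell gradient B (change 2.80). In the morula the heavy side held 104, 107 and 85.9 CPM against 27.8, 62.2 and 58.4 CPM on the light side, and in the blastocyst 78.5, 115 and 79.4 CPM against 53.8, 62.4 and 51.1 CPM. The centre of its profile was 6.76 ± 0.72 (SD, n = 3 gradients) in the morula and 6.29 ± 0.11 in the blastocyst.

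**Figure D3:**
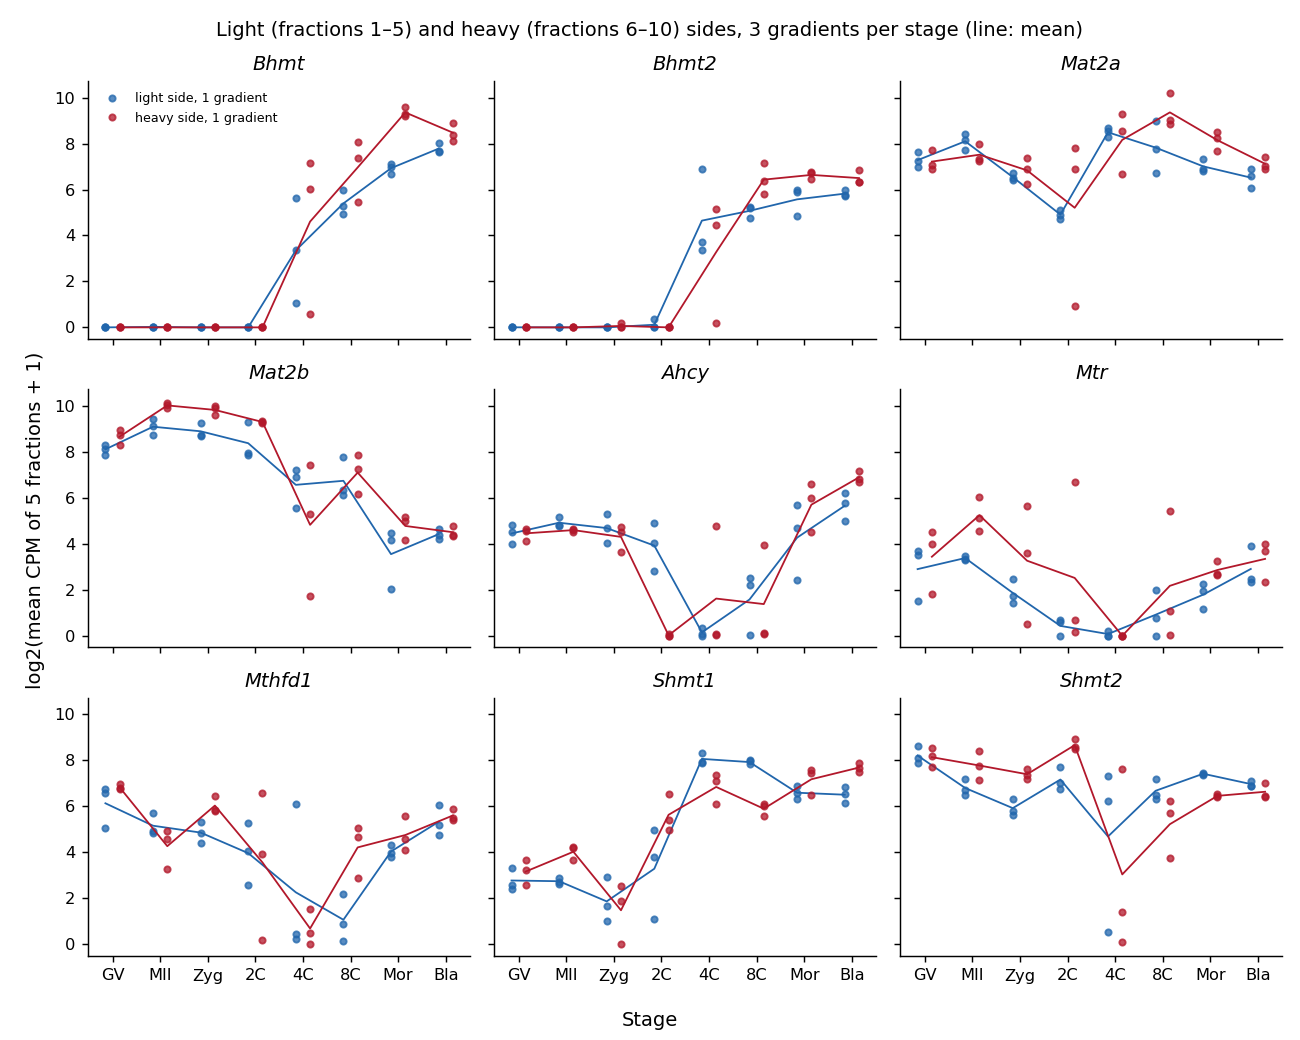
Light side (blue, mean CPM of fractions 1 to 5) and heavy side (red, mean CPM of fractions 6 to 10) of each member, as log2(mean CPM + 1), 1 point per gradient and a line through the means of 3 gradients. The points of 2-cell or 4-cell gradients are widely scattered for several members, and Bhmt morula heavy sides all lie above the light sides.

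From the 2-cell to the 4-cell stage the subunits of the S-adenosylmethionine synthetase differed in the heavy fractions as in the transcriptomes. The Mat2b heavy side was at 651, 628 and 618 CPM in 2-cell gradients and at 2.36, 38.8 and 170 CPM in 4-cell gradients (limma, change -4.48, SE 0.82, adjusted p = 1.7e-04), a call kept in all 15 settings run. The Mat2a heavy side was at 225, 0.880 and 118 CPM in 2-cell and 371, 100.9 and 621 CPM in 4-cell gradients (limma, change 2.96, SE 1.09, adjusted p = 0.037). The Mat2a call was lost with only the 2 stages fitted (adjusted p = 0.27), with edgeR (adjusted p = 0.085), and without 2-cell gradient B (change 0.81), 4-cell gradient A (2.77) or 4-cell gradient C (2.40). In the 8-cell embryo Mat2a had its highest mean in fraction 10, at 1704 CPM, and in the morula again in fraction 10, at 849 CPM.

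Ahcy messages were at or near 0 on the heavy side at the 2-cell stage and present there in the morula. Its heavy side held 26.0, 22.1 and 11.4 CPM in zygote gradients and 0, 0.0404 and 0 CPM in 2-cell gradients (limma, change -4.28, SE 1.04, adjusted p = 0.0054), a call kept in all 15 settings run. The light side of the same 2-cell gradients held 6.12, 15.4 and 29.1 CPM, so heavy was below light in all 3 (limma, change -3.91, SE 0.92, adjusted p = 0.0021, and 0.058 with only the 2-cell stage fitted). In the 8-cell gradients the heavy side held 0.0928, 14.4 and 0.0433 CPM and in the morula 21.9, 95.6 and 63.4 CPM (limma, change 4.33, SE 1.04, adjusted p = 0.010). The morula call was lost with edgeR (adjusted p = 0.31) and without 8-cell gradient A (change 3.70), 8-cell gradient C (3.67) or morula gradient B (3.88). Mtr had single high fractions in the same stages, with up to 513 CPM in 1 fraction of a 2-cell gradient whose other 2 gradients had heavy sides of 0.126 and 0.608 CPM.

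Shmt1 was richest in the first fraction of the 4-cell and 8-cell gradients. Fraction 1 held 880, 1056 and 595 CPM in 4-cell gradients A, B and C and 884, 691 and 590 CPM in 8-cell gradients, while the transcriptomes of those stages held 33.8 to 85.0 CPM. Fraction 1 libraries of both stages had under 1 M reads each, and the part of depth in these values was not tested. The heavy side fell below the light side at the 8-cell stage, at 46.8, 67.7 and 63.2 CPM against 247, 226 and 255 CPM (limma, change -2.03, SE 0.64, adjusted p = 0.036), but with the gradient as a block the adjusted p was 0.063. Without fraction libraries under 1 M reads (change -0.998), with edgeR, and without any single 8-cell gradient (change -2.18 to -1.86) that call was lost too. At the 2-cell stage the heavy side was at 90.9, 30.3 and 41.2 CPM against 1.16, 30.2 and 12.7 CPM on the light side (limma, change 2.35, SE 0.64, adjusted p = 0.0074). That difference was lost without gradient A (change 0.82), with only the 2-cell stage fitted (adjusted p = 0.28) and with edgeR. It turned to -0.82 with fractions 8 to 10 against 1 to 3. From zygote to 2-cell the Shmt1 heavy side rose from 0, 4.78 and 2.72 CPM to 90.9, 30.3 and 41.2 CPM (limma, change 4.16, SE 0.61, adjusted p = 4.8e-05, a call lost with fractions 8 to 10 as the heavy side), after a fall from MII to zygote of 2.55 (limma, SE 0.61, adjusted p = 0.035), which held in 5 of 15 settings and was lost with only the 2 stages fitted and without MII gradient A, B or C or zygote gradient A or C (change -2.76 to -1.81).

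Shmt2 and Mthfd1 were nearly absent from heavy fractions of several 4-cell gradients. The Shmt2 heavy side held 362, 482 and 377 CPM in 2-cell and 1.61, 195 and 0.0758 CPM in 4-cell gradients (limma, change -5.63, SE 1.14, adjusted p = 4.6e-04). With only the 2 stages fitted the adjusted p was 0.062, and with edgeR 0.13. In morula gradients Shmt2 was higher on the light side, 170 ± 5.93 CPM against 86.8 ± 4.31 CPM (SD, n = 3 gradients), and its highest fraction by mean was 3, at 339 CPM. That difference did not pass (limma, change -0.96, SE 1.10, adjusted p = 0.83). The Mthfd1 heavy side held 0.136, 14.2 and 93.2 CPM in 2-cell gradients, 0.401, 0.0154 and 1.90 CPM in 4-cell gradients and 6.46, 24.6 and 32.3 CPM in 8-cell gradients. Both steps passed (limma, change -2.87, SE 1.03, adjusted p = 0.031, and change 3.53, SE 1.03, adjusted p = 0.043), and both were lost with only the stages compared in the fit and without single gradients. The fall was lost without 2-cell gradient B or C or 4-cell gradient A or B (change -2.78 to -1.37), and the rise without 4-cell gradient A or B or 8-cell gradient B or C (change 3.11 to 3.43).

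**Figure D4:**
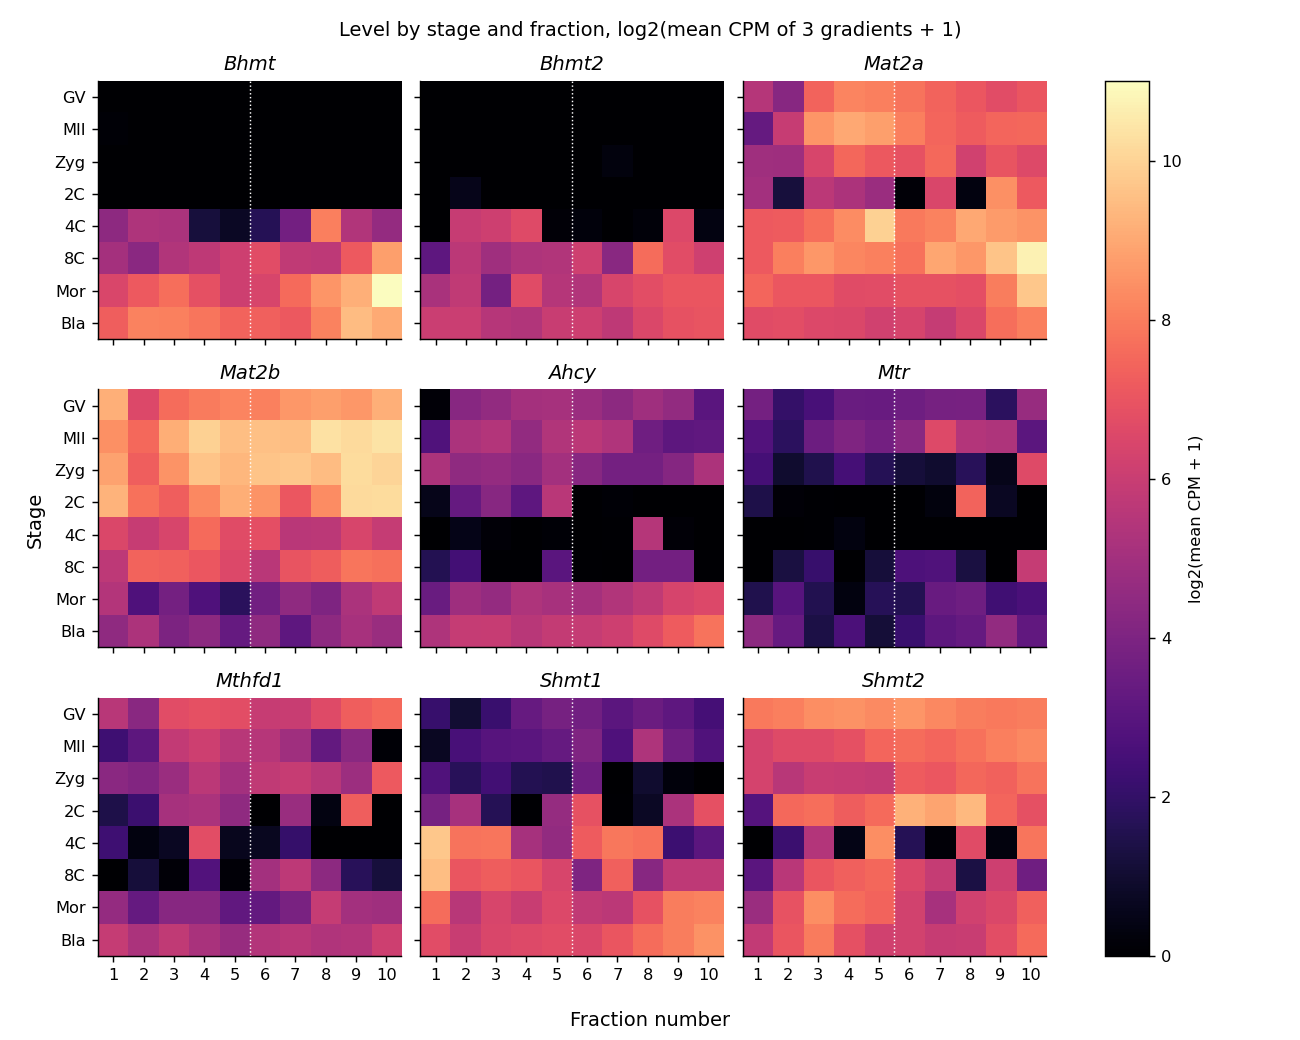
Mean level over 3 gradients as log2(CPM + 1) for each member, with stages from top to bottom and fractions from left to right, on 1 colour scale. Bhmt is brightest in morula fraction 10 and Shmt1 in fraction 1 of the 4-cell and 8-cell gradients, and the 2-cell and 4-cell rows are uneven.

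Counted over the heavy side, 12 member changes passed over 7 transitions. None of 9 passed from GV to MII (1 at an unadjusted p under 0.05 in limma, 0 by edgeR), where 4.06% of 14524 genes passed. With only these stages fitted, Mat2b passed upward and Mthfd1 downward, beside 2588 of 11516 genes. From MII to zygote 1 of 9 passed against 1.49%, and from zygote to 2-cell 2 of 9 against 20.8%. From the 2-cell to the 4-cell stage 6 of 9 passed, Bhmt, Bhmt2 and Mat2a upward and Mat2b, Mthfd1 and Shmt2 downward, against 37.8% of all genes. The Bhmt rise is counted there, although it is not independent of the choice of Bhmt. From the 4-cell to the 8-cell stage 2 of 9 passed against 6.54%, and from the 8-cell stage to the morula 1 of 9 against 7.98%. From morula to blastocyst limma called 0 of 9, with 0 at an unadjusted p under 0.05 and 0 by edgeR, against 0.0757%. All stages share 1 spread in these fits, although the 2-cell and 4-cell gradients were the patchiest. With only the groups compared, the 4-cell to 8-cell step had 0 calls among all 8558 genes tested, in place of the 6.54%. Of the 21 member calls in the 3 comparisons that use fractions, 8 had an adjusted p under 0.05 when a fit held only the groups compared, and 2 (Bhmt and Bhmt2 from the 2-cell to the 4-cell stage) could not be fitted there, since too few of those gradients reached 1 CPM.

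Heavy against light, 3 member differences passed over 8 stages, and 5 with the gradient as a block. At the 2-cell stage 2 of 9 passed, Shmt1 upward and Ahcy downward, against 18.2% of 15172 genes, and at the 8-cell stage 1 of 9, Shmt1 downward, against 9.05%. Limma called 0 of 9 in GV (0.0725% of all genes), MII (3.23%), zygote (3.01%), 4-cell (16.3%), morula (5.81%) and blastocyst (2.74%). At an unadjusted p under 0.05 there was 1 member at the 4-cell stage and 1 in the morula and 0 at the other 4 of these stages, and edgeR called 2 members at the 4-cell stage and 0 at the other 5. With only the stage itself fitted, Mtr passed upward in MII, beside 2204 of 11314 genes. Mthfd1 and Shmt2 did in the zygote (2092 of 11323) and Bhmt and Mat2a in the morula (1610 of 10962). Ahcy and Shmt1 did in the blastocyst (2416 of 11130). The 1 downward call of that fit was Shmt1 at the 8-cell stage. With the block, Bhmt in the morula, Mthfd1 at the 8-cell stage (change 3.15, limma adjusted p = 0.022) and Mat2b at the 4-cell stage (change -1.74, limma adjusted p = 0.049) were added and Shmt1 at the 8-cell stage was lost.

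Changes on the heavy side beyond those in the transcriptome passed for 6 members' transitions. From GV to MII 1 of 9 passed, Shmt1 at -1.88 (limma, SE 0.61, adjusted p = 0.046), against 8.22% of 15165 genes, and it held in 8 of 22 settings, being lost without GV transcriptome A or C, MII transcriptome A, B or C, GV gradient B or C or any MII gradient (change -1.97 to -1.59). From MII to zygote limma called 0 of 9, with 1 at an unadjusted p under 0.05 and 0 by edgeR, against 2.28%. With only these stages fitted, Mthfd1 passed upward, beside 1121 of 12134 genes. From zygote to 2-cell 1 of 9 passed, Ahcy at -4.52 (limma, SE 0.96, adjusted p = 3.3e-04, kept in all 22 settings), against 27.5%. Of the 4177 calls over all genes at that step, 3938 were downward, and the median change was -0.89. From the 4-cell to the 8-cell stage 3 of 9 passed against 13.7%: Mthfd1 at 3.92 (limma, SE 0.92, adjusted p = 0.0025), Mat2b at 2.75 (limma, SE 0.73, adjusted p = 0.0077) and Bhmt2 at 2.64 (limma, SE 0.71, adjusted p = 0.0086). Most calls over all genes were upward there too, 1816 of 2085, with a median change of 0.40. Of the 3 member calls, Mthfd1 also passed with only the 2 stages fitted (limma, adjusted p = 0.021) but was lost with fractions 8 to 10 as the heavy side. The Mat2b and Bhmt2 calls were lost with only the 2 stages fitted (limma, adjusted p = 0.325 and 0.326). They were also lost with edgeR (adjusted p = 0.23 and 0.80) and without 4-cell gradient A (changes 1.21 and 1.10). The Mat2b call was lost with the mean of log2 values over fractions too. From the 8-cell stage to the morula 1 of 9 passed, Ahcy at 3.21 (limma, SE 0.96, adjusted p = 0.032), against 6.45%, and it held in 12 of 22 settings, being lost with only the 2 stages fitted (adjusted p = 0.098) and without 8-cell gradient A or C, morula gradient B or C, 8-cell transcriptome C or morula transcriptome C or D (change 2.55 to 3.11). From morula to blastocyst limma called 0 of 9, with 0 at an unadjusted p under 0.05 and 0 by edgeR, against 2.2%. With only these stages fitted, Bhmt2 passed upward and Shmt2 downward, beside 1483 of 12595 genes.

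Levels in fractions and in transcriptomes differed, by amounts that varied between the members. For each gene the mean CPM over all fractions of a stage was set against its transcriptome mean, as a log2 difference with 1 CPM added. Bhmt was lower in fractions, by a log2 difference of -4.22 at the 4-cell stage, -3.24 at the 8-cell stage, -2.05 in the morula and -2.25 in the blastocyst. The 4-cell value lay below the range that held the central 95% of genes, -3.90 to 3.81, as did that of Mtr at -4.21, while the Bhmt values of the other 3 stages lay inside their ranges. Bhmt2 stayed within -0.41 and 0.73 from the 4-cell stage on. Mat2b was lower in fractions at every stage, between -2.59 in GV and -0.55 in the 8-cell embryo. Shmt2 was higher in fractions at every stage, between 1.31 in the blastocyst and 3.22 in the 8-cell embryo. Ahcy was higher by 4.05 in MII and 4.00 in zygotes, where its transcriptome level was under 1.3 CPM and its fraction mean 26.4 and 23.2 CPM. These values of Bhmt2, Mat2b, Shmt2 and Ahcy all lay inside the central 95% ranges of their stages. Some lay near the upper end, as Shmt2 at the 8-cell stage, where the range ended at 3.42.

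Around the members, 50 of 55 listed genes of the same metabolism were in the table. From the 2-cell to the 4-cell transcriptome 30 of 49 tested passed, 20 upward and 10 downward. This was near the share over all genes, 64.8%, so the count is no trait of the list. Gldc and Gcsh, subunits of the glycine cleavage system that feeds carbon into mitochondrial folate, were both high. Gldc rose from 9.39 to 332 CPM (limma, log2 change 5.06, SE 0.21, adjusted p = 3.9e-22, the largest rise of the list), and Gcsh rose from 478 to 3399 CPM (limma, log2 change 2.83, SE 0.16, adjusted p = 3.1e-18). Gcsh had already risen from 1.01 CPM in the zygote (limma, log2 change 7.90, SE 0.16, adjusted p = 3.6e-30), was at 3887 CPM in 8-cell embryos and fell to 291 CPM in blastocysts. Psat1 and Phgdh, which make serine, rose from 67.0 to 918 CPM and from 8.65 to 51.8 CPM. Mthfs, which recycles formyl folate, had the largest fall (limma, log2 change -4.73, SE 0.25, adjusted p = 1.2e-18), and Mthfd2, a mitochondrial folate enzyme, fell from 243 to 23.0 CPM. Mthfsl fell from 100.7 to 15.4 CPM.

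Betaine genes changed with opposite signs. Dmgdh, which shares its upstream bases with Bhmt2, rose from 1.72 CPM at the 2-cell to 37.6 CPM at the 4-cell stage (limma, log2 change 3.82, SE 0.19, adjusted p = 1.5e-19), and Sardh, the next enzyme on that route, from 1.25 to 21.4 CPM (limma, log2 change 3.25, SE 0.23, adjusted p = 5.9e-15). Pemt, which makes choline-containing phospholipid with S-adenosylmethionine, rose from 91.7 to 641 CPM. Slc6a20a, a carrier of betaine and proline, was at 19.7, 26.0, 9.64 and 3.94 CPM in GV, MII, zygote and 2-cell means and at most 0.286 CPM afterwards (limma, log2 change at the 4-cell stage -1.94, SE 0.17, adjusted p = 9.8e-13). Chdh, which makes betaine from choline, fell from 3.72 to 0.641 CPM (limma, log2 change -1.52, SE 0.31, adjusted p = 3.1e-05). Dmgdh, Sardh, Slc6a20a and Chdh were singled out after their values were seen, as genes that act beside Bhmt, so their p-values are a description. Of the same part of the list, Aldh7a1 and Slc44a2 also passed downward at this step.

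**Figure D5:**
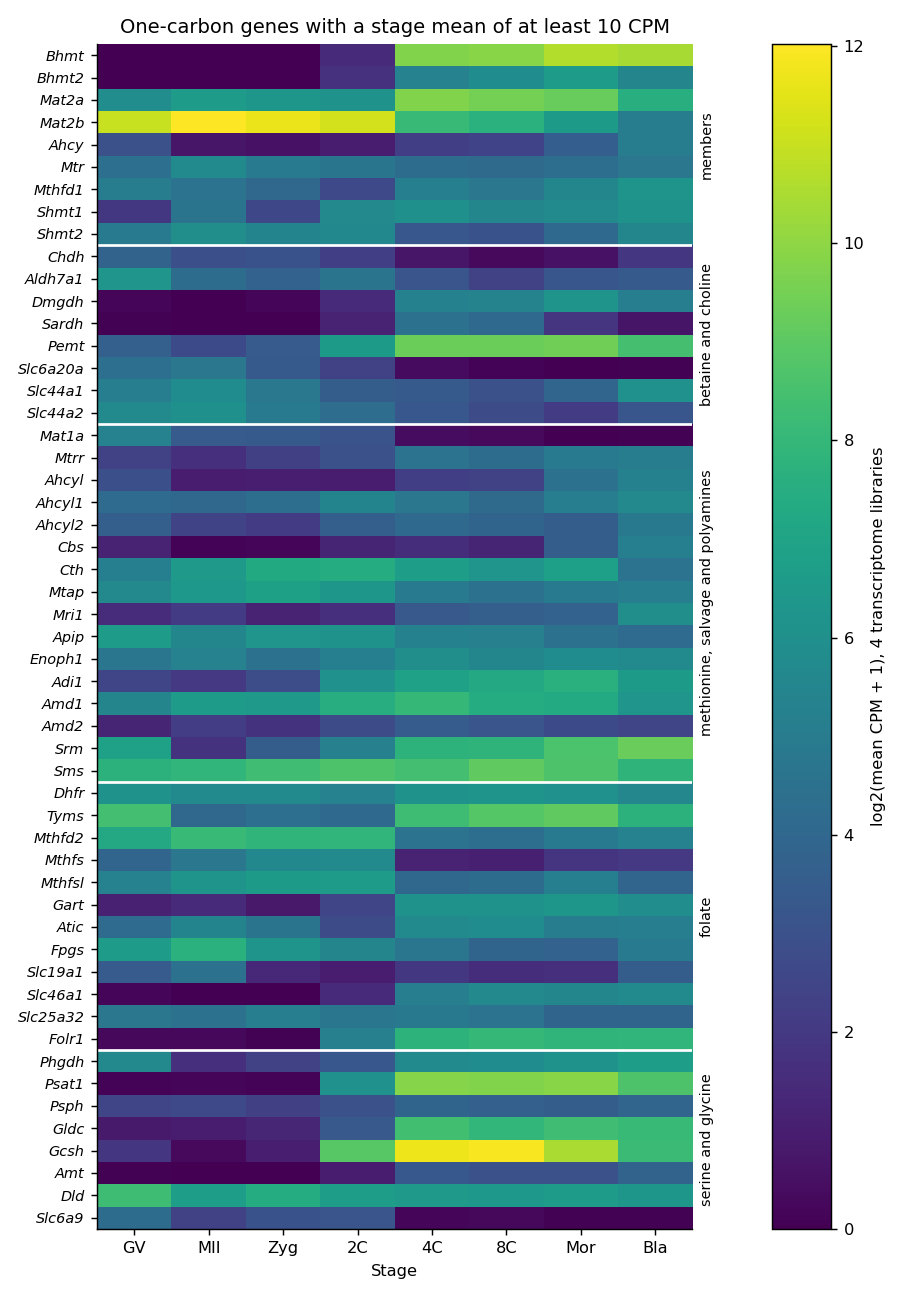
Mean transcriptome level as log2(CPM + 1) over 4 libraries per stage for the 9 members (top) and 44 of the listed genes with a stage mean of at least 10 CPM, grouped by role. Bhmt, Pemt, Psat1, Gldc and Gcsh brighten at the 4-cell stage, and Mat2b, Mthfd2 and Slc6a20a darken.

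At the other transcriptome transitions the listed genes changed as follows. From GV to MII 20 of 49 passed, 4 upward and 16 downward, beside 34.5% of all genes, of whose 5045 calls 3711 were downward, with Cth, which makes cysteine, the largest rise (log2 change 1.34) and Srm, spermidine synthase, the largest fall (log2 change -5.11, from 116 to 2.43 CPM). From MII to zygote 6 passed (10.3% of all genes), with Srm at 1.76 and the folate carrier Slc19a1 at -3.13, and from zygote to 2-cell 19 passed (33.9%), with Atic, a purine enzyme, falling most at -1.91. From the 4-cell to the 8-cell stage limma called 0 of 49, with 11 at an unadjusted p under 0.05 and 0 by edgeR, beside 2.6% of all genes. From the 8-cell stage to the morula 4 passed (11.9%), with Cbs at 2.26 and Sardh at -2.28, and from morula to blastocyst 18 passed (26.8%), with the choline carrier Slc44a1 at 2.198 and Gcsh at -2.31. The other abundant genes of the list by stage mean were Tyms, thymidylate synthase, with 339 CPM in GV, 15.1 CPM in MII and 552 CPM in the morula, Folr1, a folate receptor, with 0.0556 CPM in the zygote and 253 CPM at the 8-cell stage, and Dld, with 314 CPM in GV. Fpgs reached 203 CPM in MII, Cth 174 CPM and Amd1 256 CPM at the 2-cell and 4-cell stage. Sms reached 544 CPM at the 8-cell stage, Adi1 195 CPM in the morula, Srm 628 CPM and Phgdh 103 CPM in the blastocyst, and Mtap 113 CPM in the zygote.

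In the heavy fractions the listed genes passed in numbers of 1, 1, 16, 23, 4, 5 and 0 of 49 over the 7 transitions in order, the last with 2 at an unadjusted p under 0.05 in limma and 0 by edgeR. The shares of all genes were 4.06%, 1.49%, 20.8%, 37.8%, 6.54%, 7.98% and 0.0757%. With only the groups compared the list counts were 9, 4, 10, 11, 0, 10 and 1, and with edgeR the count from the 8-cell stage to the morula was 0. Srm fell by 2.36 at the GV to MII step, then rose by 2.83 up to the zygote. Psat1 rose by 6.80 and Slc19a1 fell by 5.44 from zygote to 2-cell. Slc46a1, the proton-coupled folate transporter, rose by 7.64 and the glycine transporter Slc6a9 fell by 7.61 from the 2-cell to the 4-cell stage. Mthfd2 rose by 3.96 and Atic fell by 3.44 from the 4-cell to the 8-cell stage, and Cbs rose by 5.37 and Slc6a9 fell by 3.59 from there to the morula. Between the sides of the gradients, heavy minus light, 15 of 50 differed at the 2-cell stage, with Enoph1 at 4.76 and Ahcyl at -4.57, 8 at the 4-cell stage, with Atic at 3.67 and Slc44a2 at -3.85, and 6 at the 8-cell stage, with Ahcyl1 at 3.81 and Cbs at -3.33. Of all genes 18.2%, 16.3% and 9.05% passed at these stages, and with only the stage itself fitted the list counts were 1, 0 and 0, with 0 of 8575 genes called at the 4-cell stage. In MII 2 of 50 passed (3.23% of all genes), in the zygote 2 (3.01%) and in the morula 1 (5.81%), with 0 by edgeR at each. With only the stage itself fitted, the list counts there were 6, 9 and 7. Srm was lower on the heavy side in MII by a log2 difference of -1.53, Fpgs higher in the zygote by 3.03, and Mthfd2l lower in the morula by -2.03. Beyond the transcriptome change, 2, 0, 19, 16, 5 and 1 of 49 passed over the 6 transitions other than 2-cell to 4-cell. The shares of all genes were 8.22%, 2.28%, 27.5%, 13.7%, 6.45% and 2.2%. With edgeR the list counts were 2, 0, 15, 10, 5 and 0, so the call from morula to blastocyst was lost. In the limma fit Srm rose by 2.76 from GV to MII, Ahcyl1 rose by 2.91 and Slc19a1 fell by 4.99 from zygote to 2-cell, and Atic fell by 3.52 from the 4-cell to the 8-cell stage. Cbs rose by 3.11 and Slc6a9 fell by 3.45 from the 8-cell stage to the morula, and Gcsh rose by 2.07 from morula to blastocyst.

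Among 10768 genes with a stage mean of at least 10 CPM, the 5 whose log2(CPM + 1) over the 32 transcriptomes was most like that of Bhmt were Gm5096 (Pearson r = 0.994), Syngr1, Rps28, Cndp2 and Tma7 (r = 0.993 for the last). Over the 24 heavy side means the same genes had r of 0.991, 0.874, 0.802, 0.912 and 0.865. These points share 8 stages and the step at the 4-cell stage, so high values are common, and Bhmt2 with r = 0.985 ranked 72. Gm5096, a copy of Bhmt, is 99.4% identical to it over 1869 bases in the GENCODE M21 transcripts and was listed at 127 CPM at the 4-cell and 214 CPM at the morula stage. Reads of the 2 could have been split or shared by the counting, so the level of each is uncertain. Bhmt2 is 78.8% identical to Bhmt over 774 bases. Mat2a had r = 0.874 and ranked 2072, and Mat2b had r = -0.944 and ranked 9651.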

How the data were processed

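The table, as deposited, gives CPM (a gene's reads per 1 M in its library) for 15854 gene symbols in 272 libraries of mouse oocytes and embryos. The submitters' processing notes name Trim Galore 0.6.7, FastQC, HISAT2 2.2.1, featureCounts 2.0.1, edgeR and the build GRCm39, with no order or settings. Per the labels' protocols, polyA RNA was amplified with a Smart-seq kit and read as 150-bp pairs. 9 columns were recorded as signal at the unit check because repeated symbols push their sums over 1 M, and the authors had scaled these deposited signal values to the library total like the rest. Of 159 symbols in 76 groups with identical rows, 1 per group was kept, leaving 15771. In 271 libraries the values were whole multiples of 1 read (100% of values, within 0.05 reads), and those reads entered the read-based alternatives.

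Tests used limma 3.58.1 in R 4.3.3 on log2(CPM + 1), with a trended spread shared by all stages, for genes at 1 CPM or more in at least 4 transcriptomes or 3 gradient values, and Benjamini-Hochberg adjustment over all genes tested. Changes are on that log2 scale, which understates those of low genes. A call needs adjusted p under 0.05 and a change of at least 1. Side means average 5 fractions per gradient. Alternatives included edgeR 4.0.16 and DESeq2 1.42.0 on recovered reads, quantile normalization, other pseudocounts and fractions, and leaving out each library. On simulated data the fits with a shared spread called too many unchanged genes in fraction comparisons, above all at the 2-cell and 4-cell stages. The members and lists were chosen with earlier results of these data known. All 9 members are named, with, from the list, the called gene of largest rise and fall in each comparison and every gene reaching 100 CPM, and the 5 genes most like Bhmt, except 1 list gene that is not reported here. Heavy and light sides of 1 gradient come from the same lysate, which pairs them, and their deviations correlated at 0.0078 to 0.253 (11 of 24 pairs over 0.1). The letters of the 2-cell transcriptome columns differ from those of the labels, so these 4 are replicates without a letter. Copies were searched with blastn 2.17.0 against GENCODE M21 transcripts. Replicates of a group differed by more than sampling noise, with the smallest chi-square per degree of freedom at 2.55 over 286 pairs.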

Additional observations from a re-analysis of the deposited data

Results flagged for a closer look

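In 5 of 66 groups of 4 transcriptome libraries, 1 library stood apart from the other 3 by Dixon's ratio, where chance gives about 1 in 20. Mat2a reached 69.5 CPM in 1 GV library, with the others at 54.0 to 55.9 CPM. Mat2b reached 2415 CPM in 1 2-cell library, with the others at 2277 to 2291 CPM. Shmt1 was at 17.6 CPM in 1 MII library, with the others at 25.2 to 25.8 CPM, and at 46.5 CPM in 1 morula library, with the others at 52.0 to 53.1 CPM. Shmt2 was at 13.3 CPM in 1 morula library, with the others at 17.0 to 17.8 CPM.

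The difference between heavy and light side itself changed from the 2-cell to the 4-cell stage for 2 members, by a limma interaction added after the data were seen, over 63 member tests. This fit also shares 1 spread over all stages, the patchy 2-cell and 4-cell gradients included. For Shmt1 it changed by -3.57 (SE 0.90, adjusted p = 0.0070), from 2.35 at the 2-cell to -1.22 at the 4-cell stage. For Ahcy it changed by 5.38 (SE 1.30, adjusted p = 0.0048), from -3.91 to 1.47. At that transition 1781 of 15172 genes passed the same test, and the Ahcy messages on the heavy side of the 4-cell stage came from gradient C alone, at 26.1 CPM against 0.0508 and 0.0181 CPM in gradients A and B.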

How the results depend on the processing

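Transcriptome member calls stayed between 14 and 19 against 16 under every alternative run (quantile normalization 14 with 7 rises, edgeR 18, DESeq2 19), and between 15 and 17 when 1 of 32 libraries was left out. With the replicate letter as a block, over the 5 transitions without the 2-cell stage, the count was 12, as without it. Transcriptomes that share a letter correlated over 0.1 in 2 of 20 pairs and heavy sides in 0 of 21, and the block left the heavy side count at 12. Counts from fractions depended more on the processing. The heavy side gave 12 calls, 20 with the mean of log2 values over fractions and 7 with fractions 8 to 10, and 10 to 13 when 1 gradient was left out. Heavy against light gave 3 calls, 8 when a fit held only the groups compared, 5 with the replicate block (gradient) and 6 with edgeR, and 2 to 11 when 1 gradient was left out, the 11 being without 4-cell gradient B, and 5 without 2-cell gradient B or 4-cell gradient C. Rises were 1 of 3 calls there, 7 of 8 with only the groups compared, 3 of 5 with the block, 3 of 6 with edgeR and 2 of 4 with quantile normalization. Heavy beyond transcriptome gave 6 calls, 11 with only the groups compared and 16 with the mean of log2 values, and 4 to 10 when 1 library or gradient was left out, the 10 being without 4-cell gradient B. Rises were 4 of 6 there, 5 of 11 with only the groups compared and 2 of 4 with edgeR. Of the single changes, Shmt1 heavy minus light at the 2-cell stage turned to -0.0091 with the mean of log2 values and to -0.82 with fractions 8 to 10 against 1 to 3, and Shmt1 beyond the transcriptome from zygote to 2-cell turned from 0.93, not called, to -1.77 with the mean of log2 values. The cause was not tested. Over the members' single changes, 96 alternative values lost a call, 92 gained one and 3571 did neither. Quantile normalization moved the median transcriptome change of all genes from -0.11 to 0.16 (GV to MII), from 0.37 to -0.08 (zygote to 2-cell), from 0.02 to 0.22 (2-cell to 4-cell) and from 0.16 to -0.01 (morula to blastocyst). In fractions under 1 M reads, 3 reads are worth 2.61 CPM or more, which limits what can be detected there.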
